A study of Mus musculus with 10 samples.

Results

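Open chromatin was followed at 9 genes for surface markers or their synthesis while mouse fibroblasts were reprogrammed to pluripotency: Fut4 and Fut9, which encode enzymes of SSEA1 synthesis, and Thy1, Cd44, Icam1, Pecam1, Kit, Alpl and Itga6, whose products are surface markers used to follow reprogramming. The members were all peaks of the deposited ATAC-seq lists that overlapped one of these genes or its flanks of 30 kb on either side. They numbered 485 of 685776 listed peaks, and merged with the other lists they fell into 144 of 208851 regions of open chromatin. ATAC-seq uses a transposase that cuts accessible DNA and inserts sequencing adapters into it, and a peak is a stretch where such cuts exceed the local background. Per the labels, 10 libraries of 50000 cells each were made, 2 for each of 5 stages. MEF are embryonic fibroblasts of strain C57BL/6 x 129 with the genotype OKSM Col1a1/M2rtTA ROSA26, grown in MEF medium and never given doxycycline. OKSM is a cassette for the 4 factors Oct4, Klf4, Sox2 and Myc, and M2rtTA is the activator that turns it on when doxycycline is present. DAY3, DAY6 and DAY9 are the same cells after 3, 6 or 9 days in ESC medium with 1 µg/ml doxycycline and 50 µg/ml ascorbic acid. ESC are the embryonic stem cell line V6.5 of the same strain label, which is a single established line without the cassette, cultured on irradiated feeder cells without doxycycline. DAY6 and DAY9 were sorted for SSEA1 and the other stages were not, so sorting cannot be told apart from day 6 and day 9, nor the cell line from ESC.

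SSEA1 is a carbohydrate, the Lewis X structure, which is completed when an α1,3-fucosyltransferase adds fucose to a galactose-containing sugar chain. It is present on mouse embryonic stem cells and absent from fibroblasts, and its appearance together with the loss of Thy1 is a common way to sort cells that are on the way to pluripotency. CD44, ICAM1, PECAM1, KIT, alkaline phosphatase and integrin α6 are further surface molecules with known differences between fibroblasts and stem cells. An open region near a gene is not a measure of its transcript or its protein, neither of which was analysed here.

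The lists differ in length and depth. They held 45497 to 88980 peaks, and the background pileup recovered from the deposited fold and p-value, which stands in for sequencing depth, ranged from 2.33 for DAY6 replicate 2 to 8.32 for MEF replicate 2. At the genome-wide background the smallest fold that could be listed was between 2.57 (MEF replicate 2) and 3.61 (DAY6 replicate 2), and lower folds were listed where the local background was higher. A missing peak therefore means that enrichment was too weak to be listed at this depth, or that a called peak was removed. Gaps in the peak names show removal by a rule that is not stated. Of the peak numbers 58.2% (DAY6 replicate 2) to 75.9% (DAY9 replicate 1) were kept. The DAY3 libraries differed from each other by 1.33 times counting noise and the DAY9 libraries by 1.42 times, against 3.61 to 8.11 times within the other stages. Each of these pairs was therefore counted as 1 sample in tests, and their agreement is not replicate evidence. Peaks at the ends of 6 fibroblast genes, Thy1 included, and of 6 pluripotency genes were used to check the stage labels. Of the fibroblast genes 5 had a peak in both MEF libraries, and Postn (encoding periostin) had one in no library of another stage. None of the pluripotency genes had a peak in both MEF libraries, and all 6 had one in both ESC libraries. Esrrb and Zfp42 each had one in 1 MEF library and in 1 DAY3 library. Ptprc, the common leukocyte antigen gene, had no gene-end peak in any library, and Cdh5, the endothelial cadherin gene, had one in at most 1 library of any stage. The endothelial receptor genes Kdr and Tek, in contrast, had one in 1 MEF library and in both libraries of every later stage. Of the other blood genes Spi1 had one in all 10 libraries and Csf1r in 1 DAY3 library. The part of such cells in the results was not tested. The ESC libraries had no peak at the gene ends of Postn or Pdgfra, while Col1a2, Twist1 and Prrx1 had one in both, and any share of feeder cells in the ESC results was not tested.

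Folds below are the authors' deposited values, the summit of the peak relative to its local background in the same library, and are given as replicate 1 and replicate 2 of each stage. In this fold 1 is added to the summit and to the background, which lowers it more where the background pileup is low. Folds therefore depend on depth, describe each list and were not tested between lists. A region is called gained between stages if both libraries of the later stage and neither of the earlier one had a peak in it, and lost in the opposite case. In a bulk library a weaker peak from fewer open cells and one from less opening per cell cannot be told apart. Positions are those of build mm10, named in the submitters' processing notes, and gene positions are from the RefSeq annotation of GRCm38.p6, which is the same assembly. That table has no exons, so whether a region inside a gene is exonic or intronic was not analysed here. In 10 of the 144 regions, among them the start regions of Cd44 and Icam1 and the gene-end regions of Fut9 and Itga6, the peaks did not all share a base, and in 8 of these 10 some library had more than 1 peak. The fold given for a library is then that of its peak with the highest fold.

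The RefSeq promoter table held windows for 5 of the 9 genes, each from 250 bases before to 50 after an annotated start, and they are shown because the start sites of these genes opened at different stages. Capitals mark matches to motifs that were searched on both strands, and the letters run 5′ to 3′ along the gene. Fut9, Thy1, Pecam1 and Itga6 have no window in the table.
Fut4, chr9:14752073-14752372, minus strand: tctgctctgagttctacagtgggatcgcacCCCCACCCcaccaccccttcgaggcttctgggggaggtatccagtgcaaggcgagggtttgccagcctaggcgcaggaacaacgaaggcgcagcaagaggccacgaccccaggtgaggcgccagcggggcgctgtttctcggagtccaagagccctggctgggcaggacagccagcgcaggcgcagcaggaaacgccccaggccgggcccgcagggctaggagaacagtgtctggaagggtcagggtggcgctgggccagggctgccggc
Cd44, chr2:102901616-102901915, minus strand: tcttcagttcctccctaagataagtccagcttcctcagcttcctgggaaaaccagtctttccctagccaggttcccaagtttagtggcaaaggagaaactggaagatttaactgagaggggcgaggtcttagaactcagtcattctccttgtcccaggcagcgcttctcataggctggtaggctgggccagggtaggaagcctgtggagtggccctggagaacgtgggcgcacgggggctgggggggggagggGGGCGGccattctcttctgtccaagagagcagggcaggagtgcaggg
Icam1, chr9:21015690-21015989, plus strand: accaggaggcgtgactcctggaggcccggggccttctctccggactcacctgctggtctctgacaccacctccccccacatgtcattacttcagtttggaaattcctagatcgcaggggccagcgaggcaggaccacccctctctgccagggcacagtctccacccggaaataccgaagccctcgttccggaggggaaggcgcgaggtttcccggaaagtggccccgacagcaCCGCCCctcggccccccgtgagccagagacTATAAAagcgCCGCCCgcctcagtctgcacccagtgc
Kit, chr5:75574737-75575036, plus strand: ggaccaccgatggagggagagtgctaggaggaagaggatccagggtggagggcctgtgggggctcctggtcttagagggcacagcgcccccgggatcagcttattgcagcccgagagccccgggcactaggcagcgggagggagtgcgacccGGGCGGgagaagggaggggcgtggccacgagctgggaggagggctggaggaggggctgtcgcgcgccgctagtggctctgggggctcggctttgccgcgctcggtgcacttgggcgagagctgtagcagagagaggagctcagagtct
Alpl upstream start, chr4:137796335-137796634, minus strand: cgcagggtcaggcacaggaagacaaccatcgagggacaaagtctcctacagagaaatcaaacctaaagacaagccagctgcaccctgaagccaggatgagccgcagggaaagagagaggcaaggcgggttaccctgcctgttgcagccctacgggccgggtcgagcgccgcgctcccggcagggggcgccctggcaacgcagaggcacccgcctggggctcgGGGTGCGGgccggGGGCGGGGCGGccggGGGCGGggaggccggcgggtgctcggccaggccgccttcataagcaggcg
Alpl internal start, chr4:137766426-137766725, minus strand: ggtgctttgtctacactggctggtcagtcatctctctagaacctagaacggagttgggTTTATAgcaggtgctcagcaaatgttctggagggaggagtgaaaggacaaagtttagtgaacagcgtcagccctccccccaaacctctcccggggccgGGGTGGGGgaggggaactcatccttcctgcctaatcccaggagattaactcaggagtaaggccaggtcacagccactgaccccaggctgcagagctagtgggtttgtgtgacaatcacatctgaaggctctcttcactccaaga

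The windows shown had very different histories. The Cd44 window was under a peak in all 10 libraries and the Fut4 window in 9, all but DAY3 replicate 2. The upstream Alpl window also had a peak in 9 libraries, all but MEF replicate 2, whereas its internal window had a peak in 0 of 10. The Kit window was under a peak in 6 libraries, those of DAY6, DAY9 and ESC. The Icam1 window was under a peak in 5 libraries, replicate 1 of DAY3, DAY6 and DAY9 and both of ESC. CpG dinucleotides numbered 18 in the Fut4 window, 6 in that of Cd44, 19 in that of Icam1, 20 in that of Kit, 26 in the upstream and 4 in the internal Alpl window, and the median of all 32851 windows was 7. Of the motifs, the GC box GGGCGG occurred in the windows of Cd44, Icam1, Kit and upstream Alpl and in 35.7% of all windows. The KLF-type motif GGGTGNGG occurred in the Fut4 window and in both Alpl windows, and in 16.6% of all windows. The TATA-box letters TATAAA occurred in the Icam1 and internal Alpl windows and in 13.6% of all windows. The Icam1 match began at +14, after the annotated start, and the internal Alpl match at -192, on the other strand. The other motifs had no match in the windows shown: the octamer ATGCAAAT (1.74% of all windows), the SOX-type motif AACAATG (3.78%), the AP-1 motif TGANTCA (7.81%), the TEAD-type motif GGAATG (14.7%), the E-box CACGTG (7.15%) and an NF-κB-type motif (1.2%). A match is a description of the letters and not a binding site.

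Of the fucosyltransferase genes, Fut9 had different open regions in MEF and in the later stages, while the start of Fut4 was open in at least 1 library of every stage. Fut9 encodes the α1,3-fucosyltransferase that makes most of the Lewis X of mouse embryonic cells. The gene spans 190.7 kb on chromosome 4 (25609333 to 25800003), and its window held no other protein-coding gene. It had 2 and 4 peaks in MEF, 3 and 2 for DAY3, 6 and 7 for DAY6, 8 and 11 for DAY9, and 8 and 12 for ESC. Every DAY6, DAY9 and ESC library had more peaks than any MEF or DAY3 library, with no overlap between these sets. The full DAY3 lists were also the shortest (45766 and 45497 peaks), and those of DAY9 and ESC the longest. How many other genes have such an order of peak numbers, here or at the genes below, was not counted.

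No MEF peak lay near the upper end of Fut9, which opened in 3 adjacent regions during reprogramming. The region over that gene end (chr4:25798896-25800427) had a fold of 2.93 for DAY3 replicate 1, whose peak ended before the gene end, 5.62 and 5.36 for DAY6, 5.1 and 5.63 for DAY9, and 6.6 and 8.11 for ESC. It was listed in both libraries from DAY6 on, in 1 of the DAY3 libraries and in neither MEF library. A region 3.4 kb inside the gene (chr4:25796064-25796639) opened a stage earlier, with folds of 6.09 and 4.85 for DAY3, 6.95 and 7.31 for DAY6, 7.72 and 7.04 for DAY9, and 7.79 and 5.16 for ESC. Between them a region 1.2 kb from the gene end (chr4:25798291-25798845) was open in the intermediate stages alone. Its folds were 5.89 and 4.65 for DAY3, 3.42 and 3.59 for DAY6, and 4.86 and 5.19 for DAY9, with no peak in MEF or ESC. These 3 regions had peaks in the same number of libraries of each stage when all lists were cut to an equal length of 45497 peaks.

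Deeper in Fut9, MEF and later stages used different regions. A MEF region 36.1 kb from the lower gene end (chr4:25645464-25646027) had folds of 14.7 and 10.3 for MEF and no peak in any of the other 8 libraries. It was the Fut9 region with the highest fold in any library. A region 61.0 kb from that end (chr4:25670364-25671220) had no peak in MEF or DAY3 and folds of 3.82 and 6.31 for DAY6, 7.21 and 5.14 for DAY9, and 13.6 and 6.12 for ESC. The remaining intermediate regions of Fut9 were weak: chr4:25658684-25659128 had a fold of 3.61 for DAY6 replicate 2 and of 3.6 and 2.63 for DAY9, and chr4:25703610-25704009 had folds of 5.11, 3.6 and 4.42 in the same 3 libraries. In all, 6 of the 23 Fut9 regions were gained and 2 lost between MEF and ESC, against 15.9% and 11.1% of all regions.

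Fut4, which encodes another α1,3-fucosyltransferase able to make Lewis X, is a short gene of 3.7 kb on chromosome 9 (14748459 to 14752122). It had 3 and 3 peaks in MEF, 3 and 1 for DAY3, 2 and 2 for DAY6, 3 and 4 for DAY9, and 3 and 4 for ESC, and the stages overlapped. The region over its start (chr9:14750991-14752662), which holds the promoter printed above, had folds of 5.94 and 3.9 for MEF, 3.97 for DAY3 replicate 1, 4.49 and 6.01 for DAY6, 4.56 and 4.18 for DAY9, and 7.79 and 4.56 for ESC. The stages overlapped here too, and DAY3 replicate 2 was the library without a peak. The gained region of Fut4 (chr9:14778213-14778822) lay 26.1 kb above the gene, with folds of 4.56 and 4.18 for DAY9 and 3.79 and 4.8 for ESC. The lost one (chr9:14717886-14718614), with folds of 3.85 and 3.43 for MEF, lay at a gene end of the neighbour Piwil4. In lists of equal length neither was in both libraries of its stage.

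**Figure D1:**
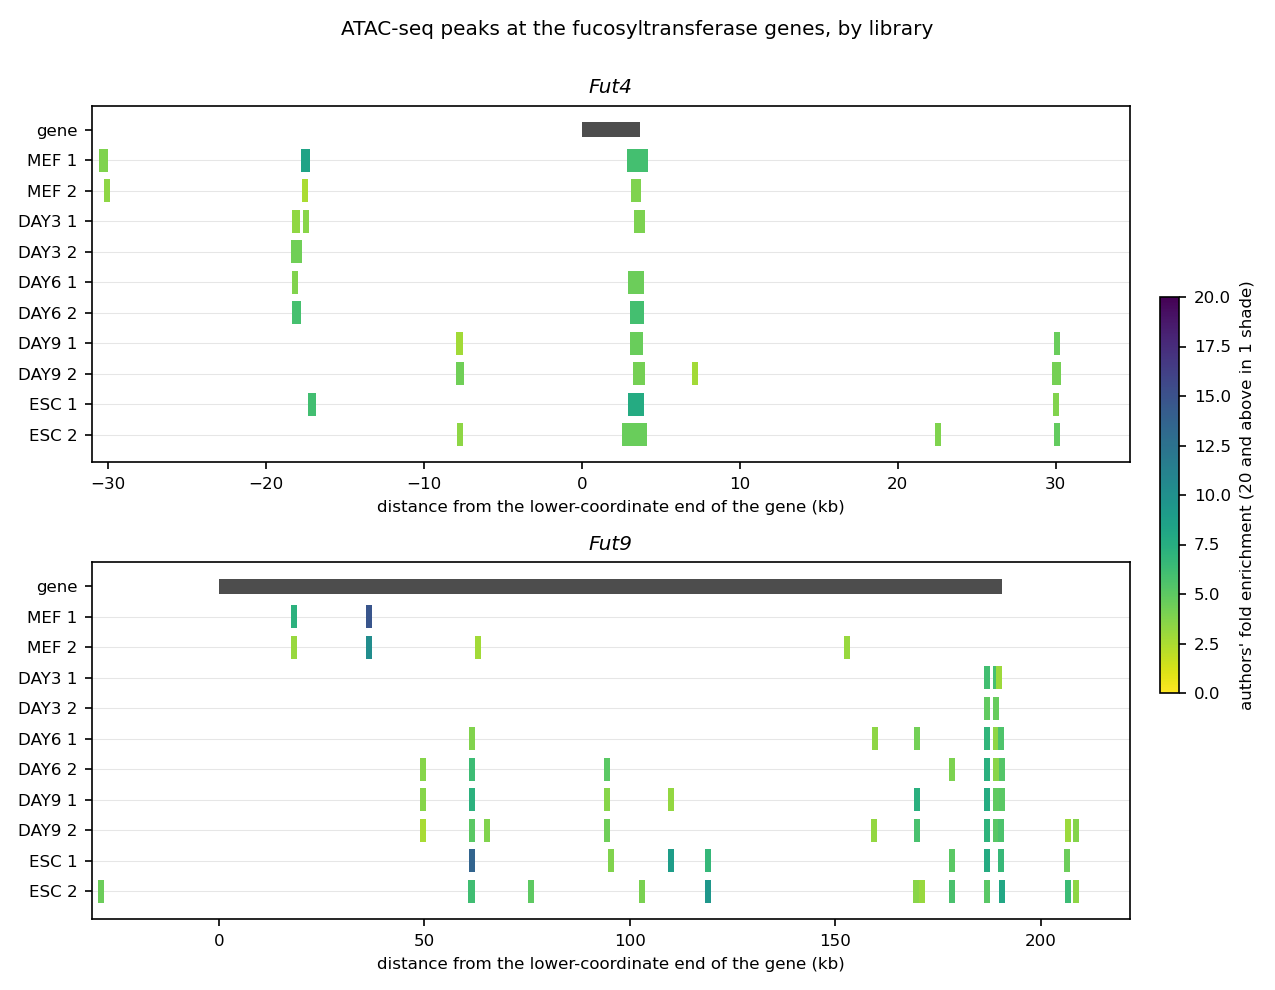
Peaks at Fut4 and Fut9 in the 10 libraries. The x axis is the distance in kb from the lower-coordinate end of the gene, each row is a library, the grey bar is the gene, and the colour of a peak is the authors' fold (very short peaks are drawn at a minimum width). The upper end of Fut9 has peaks from DAY3 on and none in MEF, and the MEF peaks at 36.1 kb, with folds of 14.7 and 10.3, have no counterpart in later stages.

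Thy1 and Cd44, whose products are abundant on fibroblasts, had their largest peak numbers in MEF. Thy1 encodes a small GPI-anchored glycoprotein and spans 5.2 kb on chromosome 9 (44043384 to 44048579). It had 8 and 6 peaks in MEF, 4 and 5 for DAY3, 4 and 3 for DAY6, 4 and 3 for DAY9, and 3 and 1 for ESC. Both MEF libraries lay above every other library, and DAY3, DAY6, DAY9 and ESC overlapped their neighbouring stages.

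Around Thy1 the MEF regions ended at different stages. A region 3.1 kb below the gene (chr9:44039757-44040251) had folds of 7.32 and 5.66 for MEF and 3.97 and 3.67 for DAY3, and no peak in DAY6, DAY9 or ESC, also in lists of equal length. A region 10.0 kb above the gene (chr9:44058542-44059074) had folds of 5.66 and 2.68 for MEF alone. The region over the lower gene end (chr9:44042901-44043744) had folds of 6.58 and 4.1 for MEF. It remained listed in 1 library of each later stage, at 3.62 for DAY3 replicate 2, 4.49 for DAY6 replicate 1, 3.36 for DAY9 replicate 1 and 3.35 for ESC replicate 1. The call at this gene end after MEF thus differed between the libraries of every stage. Other peaks at the Thy1 gene ends were in single MEF libraries, at 2.67 (chr9:44044268-44044538) and 3.33 (chr9:44048612-44049088).

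The region with the highest folds in the Thy1 window lay inside the neighbouring gene Usp2, which encodes a deubiquitinase, and was open in all 10 libraries. Its folds (chr9:44066634-44067550) were 14.9 and 9.59 for MEF, 10.8 and 8.77 for DAY3, 14.1 and 18.9 for DAY6, 17.9 and 17.5 for DAY9, and 12 and 11.1 for ESC. Also inside Usp2, chr9:44071817-44072292 had folds of 3.55 and 3.55 for DAY3, 3.14 and 3.3 for DAY6 and 2.43 for DAY9 replicate 2 and no peak in MEF or ESC. The adjacent chr9:44072520-44073142 had folds between 2.6 and 4.57 in 7 libraries of MEF, DAY3, DAY6 and DAY9 and none in ESC.

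Cd44 encodes the receptor for the matrix polysaccharide hyaluronan and spans 90.5 kb on chromosome 2 (102811141 to 102901669). It had 14 and 9 peaks in MEF, 5 and 4 for DAY3, 5 and 4 for DAY6, 6 and 5 for DAY9, and 6 and 3 for ESC. The MEF libraries again lay above all others, which overlapped among themselves. Its start (chr2:102900708-102901984), the region of the Cd44 promoter above, was nevertheless open in every library. The folds were 8.54 and 7.69 for MEF, 7.03 and 7.28 for DAY3, 7.1 and 5.5 for DAY6, 3 and 4.78 for DAY9, and 5.73 and 3.32 for ESC, with MEF above all other libraries.

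Inside Cd44, MEF and the reprogramming stages had different open regions. The region chr2:102838054-102838928, 62.7 kb from the start, had folds of 12.4 and 11.7 for DAY3, 16.7 and 16.5 for DAY6, and 17.7 and 15.8 for DAY9. No MEF or ESC library had a peak there, and the same held in lists of equal length. By deposited score it was the strongest of the 14 intermediate regions of the 9 genes. A region 72.1 kb from the start was open in all libraries (chr2:102829211-102829613), with folds of 8.44 and 8.47 for MEF, 19.4 and 19.4 for DAY3, 15.7 and 23.2 for DAY6, 18.8 and 22.7 for DAY9, and 15.4 and 11 for ESC. The lowest folds of this region were those of MEF, and no MEF value reached that of another stage. A region 85.7 kb from the start (chr2:102815287-102815999) was open from DAY6 on, with folds of 5.39 and 7.51 for DAY6, 6.84 and 4.3 for DAY9, and 8.73 and 7.43 for ESC.

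Of the 21 Cd44 regions 5 were lost and 1 gained between MEF and ESC. Over all regions the shares were 11.1% lost and 15.9% gained. The number lost was the largest among the 9 genes, in a window of 150.5 kb. The smaller window of Thy1 (65.2 kb) lost 3 of its 10 regions. Of these, the region 3.1 kb below Thy1 was still lost in lists of equal length. The others, that inside Usp2 included, were then not in both MEF lists. The lost Cd44 region with the highest score (chr2:102916351-102917072) lay 14.7 kb before the start and had folds of 12.8 and 4.73 for MEF alone. Inside the gene chr2:102873206-102873886 had folds of 3.87 and 5.15 for MEF alone, and chr2:102894925-102895721 had 5.46 and 4.62 for MEF and 3.37 for DAY6 replicate 1. These 3 Cd44 regions were also lost in lists of equal length.

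**Figure D2:**
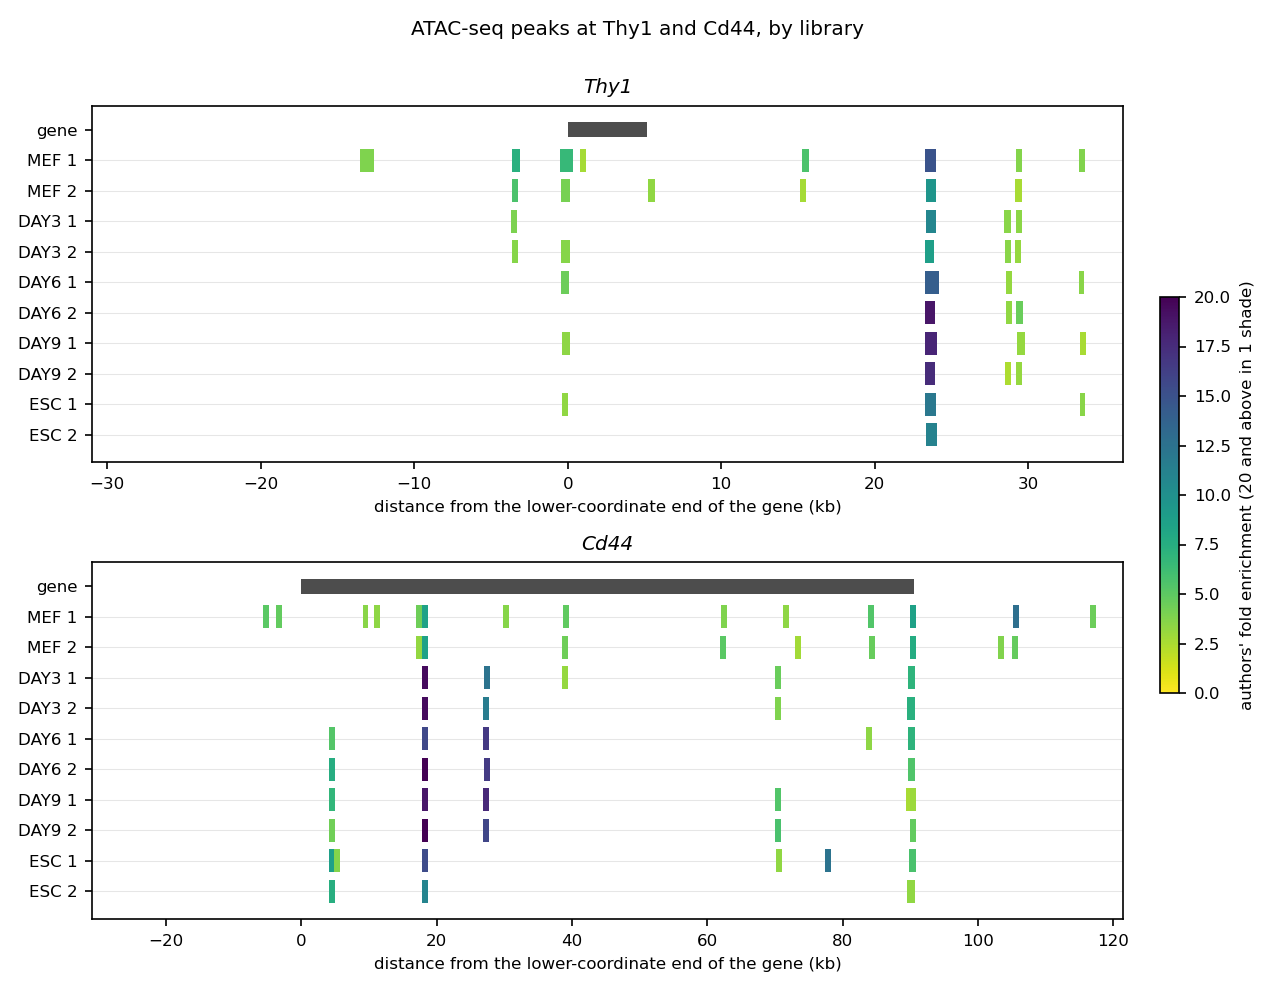
Peaks at Thy1 and Cd44 in the 10 libraries, with distance in kb from the lower-coordinate end of the gene on the x axis, 1 row per library, the gene as a grey bar and the authors' fold as colour. MEF has the most peaks at both genes (8 and 6 at Thy1, 14 and 9 at Cd44), and the Cd44 region with folds of 11.7 to 17.7 appears in DAY3, DAY6 and DAY9 alone.

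Alpl and Kit, markers of early embryonic and germline stem cells, differed in the stage with the most peaks, which was DAY9 for Alpl and ESC for Kit. Alpl encodes tissue-nonspecific alkaline phosphatase, the enzyme behind the alkaline phosphatase stain of pluripotent colonies, and spans 54.7 kb on chromosome 4 (137741731 to 137796384). It had 5 and 4 peaks in MEF, 6 and 6 for DAY3, 9 and 9 for DAY6, 13 and 13 for DAY9, and 11 and 7 for ESC. The DAY3 and DAY6 libraries lay above MEF and the DAY9 libraries above all others, while ESC overlapped DAY6. Regions with a peak in both libraries numbered 2 in MEF, 5 in DAY3, 7 in DAY6, 13 in DAY9 and 5 in ESC. Of all regions, 22.1%, 16.9%, 21.7%, 30.8% and 28.2% had a peak in both libraries of these stages. The DAY9 pair differed by 1.42 times counting noise and the ESC pair by 8.11 times, so such counts are not directly comparable between stages. The lower flank includes part of Rap1gap, a regulator of the GTPase Rap1, in which 6 of the 17 regions lay.

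Alpl opened in steps. Its upstream start (chr4:137795972-137796850), whose promoter is the upper Alpl sequence above, had a fold of 5.21 for MEF replicate 1, 5.23 and 3.76 for DAY3, 5.68 and 6.15 for DAY6, 7.41 and 7.51 for DAY9, and 4.83 and 4.24 for ESC. A region inside the gene, 11.2 kb upstream of the internal start (chr4:137777678-137779256), had no MEF peak and folds of 4.91 and 4.85 for DAY3, 10.1 and 11.2 for DAY6, 14.5 and 14.5 for DAY9, and 9.23 and 2.94 for ESC. Its fold was thus higher in each step from DAY3 to DAY9, with no overlap between these stages, though the DAY3 and DAY9 pairs count as 1 sample each. The background pileup was 5.3 and 5.27 for DAY3, 3.45 and 2.33 for DAY6, and 7.33 and 7.37 for DAY9. The part of this depth in the steps was not tested. How many other regions have such steps was not counted. This Alpl region had the highest score among the gained, lost and intermediate regions of the 9 genes. In lists of equal length it kept its DAY3, DAY6 and DAY9 peaks and that of 1 ESC library. A region 4.7 kb before the start (chr4:137801106-137801877) opened at DAY6, with folds of 8.05 and 8.72 for DAY6, 11.6 and 11.8 for DAY9, and 8.88 and 8.98 for ESC.

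Other Alpl regions belonged to the intermediate stages. The region chr4:137788432-137789104, 7.3 kb inside the gene, had folds of 4.94 and 3.91 for DAY6 and 5.67 and 7.39 for DAY9 and no peak elsewhere. Weak regions of DAY3 alone lay at chr4:137779839-137780112 (2.84 and 2.76) and chr4:137783826-137784181 (3.49 and 3.03). Inside Rap1gap, chr4:137728663-137729414 was gained, with folds of 5.07 for DAY6 replicate 1, 5.16 and 5.85 for DAY9, and 6.02 and 4.27 for ESC. The lost region of the window (chr4:137730665-137731086) had folds of 4.53 and 2.68 for MEF and was in no list of equal length.

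Kit encodes the receptor tyrosine kinase for stem cell factor and spans 81.7 kb on chromosome 5 (75574987 to 75656722). It had 3 and 2 peaks in MEF, 1 and 1 for DAY3, 4 and 2 for DAY6, 7 and 8 for DAY9, and 10 and 12 for ESC. DAY9 lay above all earlier libraries and ESC above DAY9, and MEF and DAY6 overlapped. The region over its start (chr5:75574411-75575482) had no peak in MEF or DAY3 and folds of 6.99 and 7.4 for DAY6, 8.76 and 7.68 for DAY9, and 7.22 and 7.2 for ESC. An adjacent region 0.5 kb inside (chr5:75575517-75576356) had been listed before, at 3.4 for MEF replicate 1 and at 3.81 and 6.27 for DAY3. It stayed listed at 5.81 and 5.16 for DAY6, 4.18 and 4.85 for DAY9, and 5.03 and 3.66 for ESC. In lists of equal length the start region kept the same libraries and the adjacent one was in neither MEF list.

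Further inside Kit, open regions came with DAY9 and ESC, and a MEF region was lost. The lost region (chr5:75633233-75633713), 58.2 kb from the start, had folds of 6.79 and 3.86 for MEF alone, also in lists of equal length. The region chr5:75625825-75626952, 50.8 kb from the start, had a fold of 4.94 for DAY6 replicate 1, 7.08 and 4.9 for DAY9, and 6.27 and 3.44 for ESC. Listed in ESC alone were chr5:75599677-75600858, with folds of 5.17 and 5.91, and chr5:75653195-75654092, with 9.9 and 3.56. DAY9 alone had chr5:75589553-75589925, at 4.32 and 4.18, and chr5:75676757-75677150, at 3.84 and 3.94. In all 7 of the 18 Kit regions were gained and 2 lost between MEF and ESC. Over all regions the shares were 15.9% gained and 11.1% lost. In the full lists the 7 were the largest number gained among the 9 genes. In lists of equal length only the start region and chr5:75599677-75600858 of these were still gained.

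**Figure D3:**
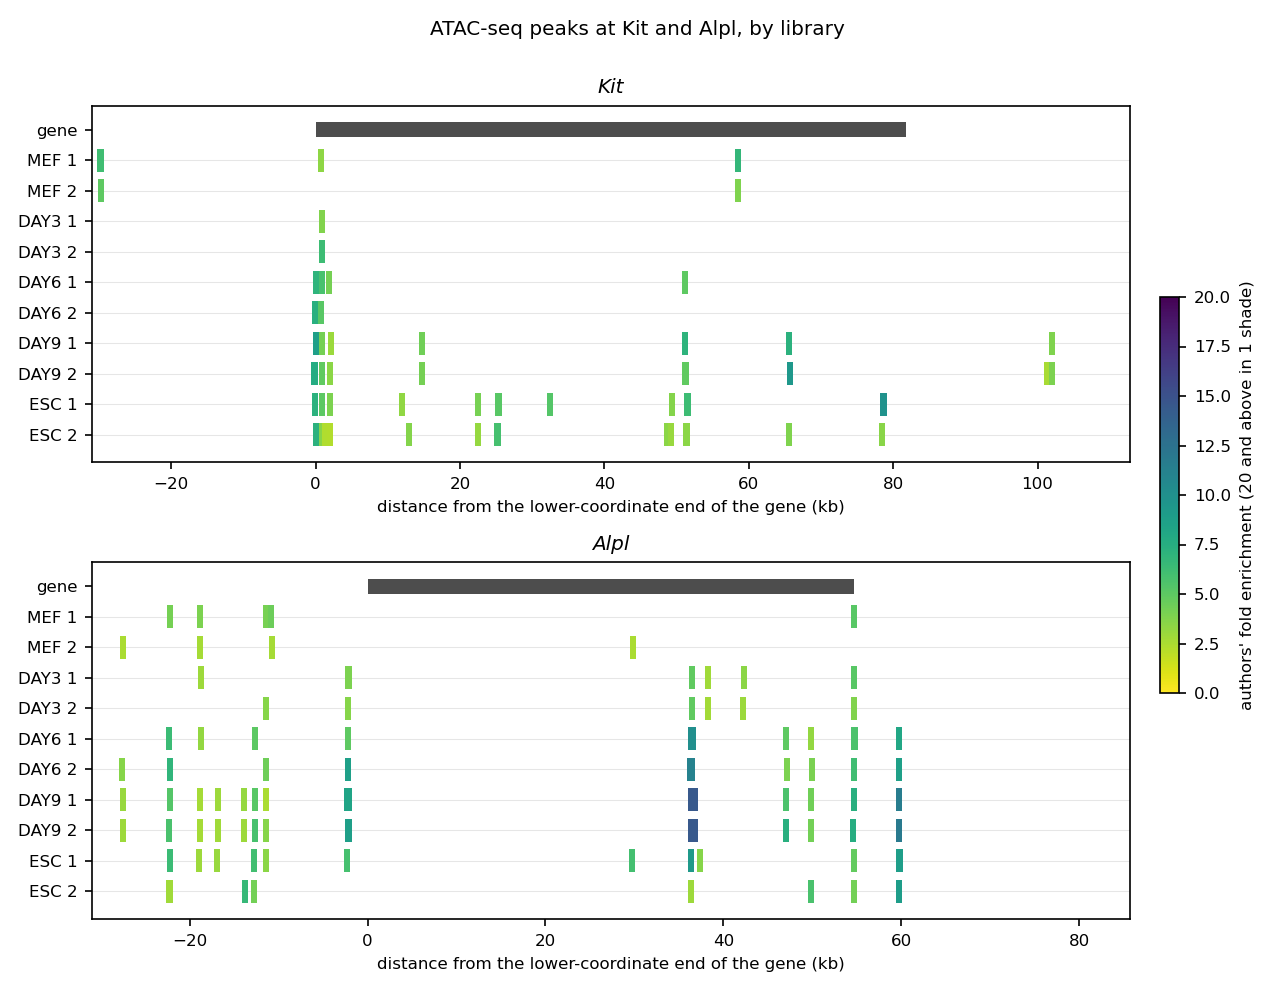
Peaks at Kit and Alpl in the 10 libraries, drawn by distance in kb from the lower-coordinate end of the gene, with 1 row per library, the gene as a grey bar and the authors' fold as colour. Peaks over the start of Kit are in DAY6, DAY9 and ESC, and the strongest Alpl region, near 36 kb, has folds of 4.91 and 4.85 for DAY3 and of 14.5 in both DAY9 libraries.

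Icam1, Pecam1 and Itga6 encode adhesion molecules: a ligand of leukocyte integrins, a homophilic adhesion molecule of endothelium that embryonic stem cells also carry, and a subunit of laminin receptors. Icam1 spans 12.9 kb on chromosome 9 (21015940 to 21028814), and Mrpl4, Icam4 and Icam5 reach into its window. It had 6 and 4 peaks in MEF, 6 and 6 for DAY3, 7 and 6 for DAY6, 9 and 7 for DAY9, and 12 and 9 for ESC. ESC overlapped DAY9 at 9 peaks, and DAY9 overlapped DAY6 at 7. At the Icam1 start the call was mixed until ESC. The region chr9:21014592-21016193, which holds the Icam1 promoter above, had no MEF peak, and folds of 3.33, 3.82 and 3.6 in replicate 1 of DAY3, DAY6 and DAY9. The ESC peaks over the start had folds of 3.25 and 4.03, which overlapped those values. ESC replicate 1 had a second, stronger peak in the region, with a fold of 5.28, that lay before the promoter window (chr9:21014592-21015077). The region 0.5 kb downstream (chr9:21016398-21017006) was listed in ESC alone, at 3.54 and 4.42. In lists of equal length the merged start region remained gained, but for ESC replicate 1 only through that second peak (score 187). Its peak over the start had a score of 75 and was cut, as was a peak of score 95 in the same list. The downstream region was in 1 ESC list. A region 24.4 kb before the gene (chr9:20990891-20991562) was open from DAY6 on, with folds of 4.94 and 4.21 for DAY6, 5.28 and 7.17 for DAY9, and 7.41 and 4.63 for ESC. The intermediate region chr9:21000534-21001218 lay at a gene end of Mrpl4, a mitochondrial ribosomal protein gene. It had folds of 3.54 and 3.43 for DAY3, 4.49 for DAY6 replicate 1, and 4.46 and 4.68 for DAY9. The 3 regions open in every library lay in Mrpl4 or Icam5, outside Icam1.

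Pecam1 spans 61.1 kb on chromosome 11 (106654213 to 106715281). It had 3 and 2 peaks in MEF, 0 and 0 for DAY3, 1 and 2 for DAY6, 6 and 6 for DAY9, and 8 and 9 for ESC. The DAY9 and ESC libraries lay above all earlier ones, and no region had a peak in both libraries of MEF, DAY3 or DAY6. Neither gene end had a peak in any of the 10 libraries. The strongest gained region (chr11:106723586-106724883) lay 8.3 kb above the gene and had folds of 7.2 and 7.21 for ESC alone. ESC replicate 2 had another peak there with a fold of 2.44, and the peak of replicate 1 overlapped both. Inside the gene chr11:106669222-106670078 had folds of 3.51 and 4.36 for ESC alone, and chr11:106709270-106709881 had 3.79 and 2.82 for ESC and 2.64 for DAY9 replicate 1. DAY9 alone had chr11:106637703-106638216, at 4.68 and 4.54, and chr11:106657991-106658384, at 2.88 and 3.94. No peak inside Pecam1 had a fold above 4.45.

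Itga6 spans 71.5 kb on chromosome 2 (71786886 to 71858427). It had 5 and 6 peaks in MEF, 4 and 3 for DAY3, 4 and 3 for DAY6, 5 and 6 for DAY9, and 8 and 6 for ESC, and MEF, DAY9 and ESC overlapped. Its lower gene end was open in all libraries (chr2:71786393-71788310), with folds of 4.98 and 3 for MEF, 5.62 and 5.44 for DAY3, 8.6 and 6.68 for DAY6, 9.75 and 12 for DAY9, and 8.42 and 5.15 for ESC. MEF had the lowest folds there and DAY9 the highest. The gained region (chr2:71866597-71867009) lay 8.2 kb above the gene, with folds of 6.47 and 5.76 for ESC alone. The intermediate region chr2:71805742-71806454 was weak, at 2.88 and 2.87 for DAY9. The region with the highest score in the window was open in all libraries and lay at a gene end of Pdk1, a kinase gene of pyruvate metabolism.

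**Figure D4:**
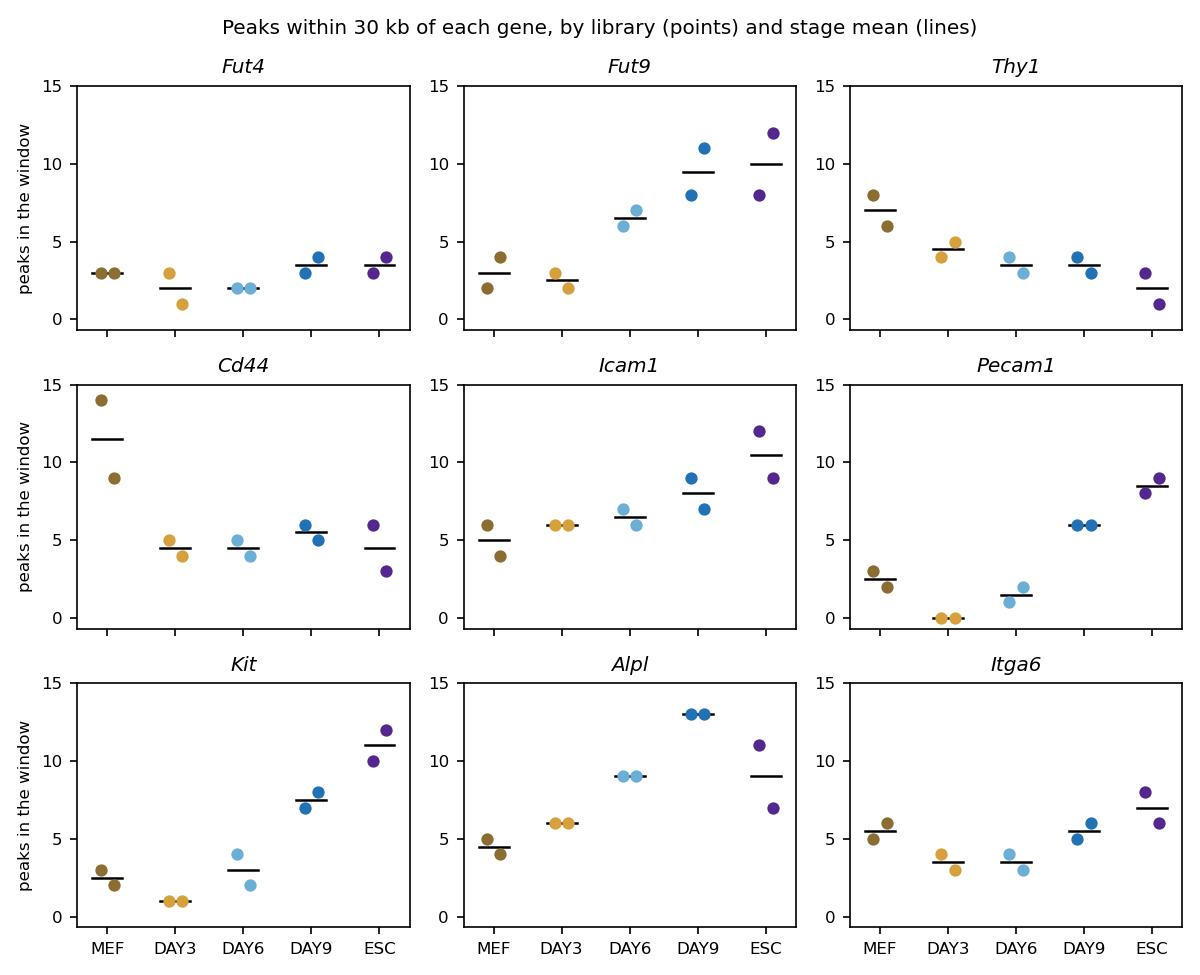
Number of peaks within 30 kb of each gene. The y axis counts peaks, each point is a library, and each line is the mean of a stage. Thy1 and Cd44 have their highest counts in MEF, Kit and Pecam1 in ESC, and Alpl in DAY9 with 13 peaks in both libraries.

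To ask whether peak numbers differed between stages beyond the spread of libraries, the share of the sum of squares that lay between stages was tested for each of 21059 protein-coding genes. DAY3 and DAY9 counted as 1 sample each, which left 8 samples and 420 arrangements (exact permutation test, smallest p = 0.00238). After Benjamini-Hochberg adjustment over all genes 0 of them (0%) were under 0.05 and the lowest adjusted p was 0.29, so no locus passed. Unadjusted p-values under 0.05 were reached by 2765 genes (13.1%) and by 2 of the 9 members. For Pecam1 the share was 98.1% (exact permutation test, p = 0.0119, adjusted p = 0.318). For Kit it was 96.2% (exact permutation test, p = 0.0357, not under 0.05 after adjustment), and with lists of equal length it was 66.1% (p = 0.364). The other members had shares of 80.2% (Cd44) to 87.6% (Fut9) and unadjusted exact permutation p-values of 0.0857 (Fut4) to 0.317 (Cd44). The median share of all genes was 79.2%, and the members stood at percentiles of 51.7 (Cd44) to 93.3 (Pecam1) among all genes. Under other settings further members came under 0.05 without adjustment, such as Thy1 in lists of equal length (exact permutation test, p = 0.00714, adjusted p = 0.309) and Fut9 by base pairs under peaks (p = 0.00952, adjusted p = 0.266). With lists of equal length, however, the share was lower for Fut9 (78.9%, exact permutation test, p = 0.212) and Fut4 (48.4%, p = 0.571). It was higher there for Cd44 (91.4%, exact permutation test, p = 0.0857) and Icam1 (89.2%, p = 0.107). The labels do not say whether the libraries of a stage came from separate cultures or animals, so these p-values measure the spread between libraries, which may be technical.

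Gained and lost regions were read against the same counts over all 208851 regions, with no test, since the smallest two-sided p of 2 libraries against 2 is 2 of 6 arrangements (1 in 3). Of the 144 regions, 25 (17.4%) were gained between MEF and ESC, against 15.9% of all regions, and 14 (9.72%) were lost, against 11.1%. From MEF to DAY3, 10 (6.94%) were gained, against 5.43%, and 12 (8.33%) lost, against 10.4%. From DAY3 to DAY6, 8 (5.56%) were gained, against 5.29%, and 4 (2.78%) lost, against 1.5%. From DAY6 to DAY9, 12 (8.33%) were gained, against 5.39%, and 1 (0.694%) was lost, against 0.956%. From DAY9 to ESC, 12 (8.33%) were gained, against 9.1%, and 14 (9.72%) lost, against 9.24%. Intermediate regions, in neither MEF nor ESC but in both lists of at least 1 stage in between, numbered 14 (9.72%), against 9.61%. No share of the 144 regions differed by more than 3 percentage points from that of all regions. With lists of equal length, 13 of the 25 gained and 10 of the 14 lost regions met the same rule.

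**Figure D5:**
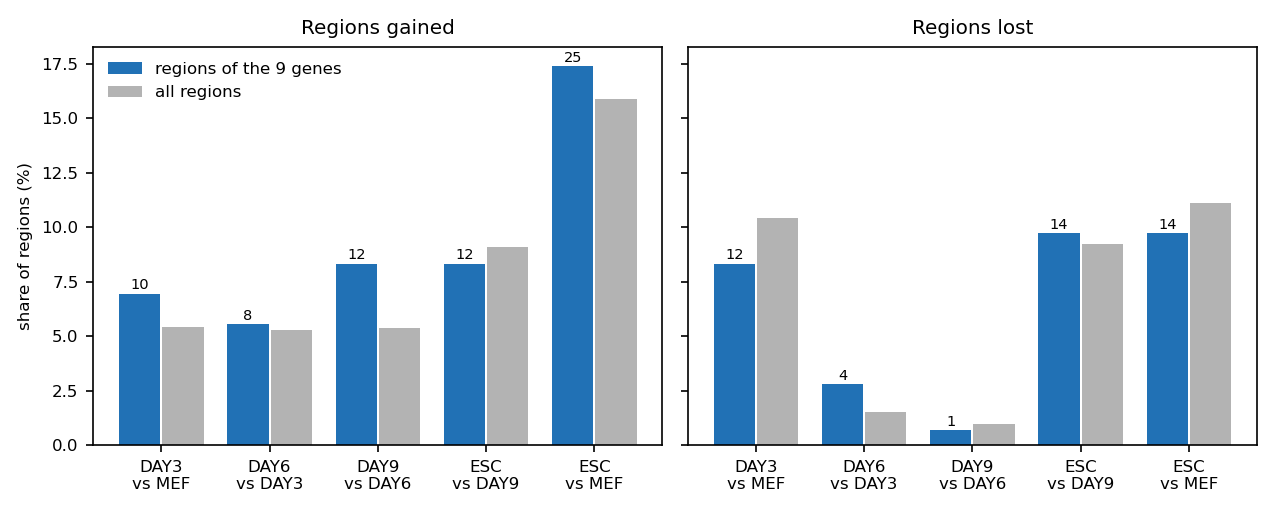
Share of regions gained (left) and lost (right) in 5 comparisons of stages. The y axis is the percentage of regions, blue bars are the 144 regions of the 9 genes with their number above, and grey bars are all 208851 regions. The blue and grey bars lie close together, as in ESC against MEF with 17.4% and 15.9% gained.

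The genes divided these counts unevenly. Gains between MEF and ESC were at Kit (7), Fut9 (6), Icam1, Pecam1 and Alpl (3 each), and Fut4, Cd44 and Itga6 (1 each), and Thy1 had 0. Losses were at Cd44 (5), Thy1 (3), Fut9 and Kit (2 each), and Fut4 and Alpl (1 each), and Icam1, Pecam1 and Itga6 had 0. Of the 25 gained regions 2 were in both libraries at DAY3 already, inside Fut9 and Alpl, 6 came at DAY6, 4 at DAY9 and 13 at ESC. These are 8%, 24%, 16% and 52%, against 8.69%, 14.7%, 15.7% and 60.9% of all gained regions. At DAY3 both libraries already lacked 11 of the 14 lost regions, or 78.6%, against 79.4% of all lost regions. Of the 14 intermediate regions 2 (14.3%, against 17.5% of all intermediate regions) were in all 6 lists from DAY3 to DAY9, those inside Cd44 and near the upper end of Fut9 described above. Without ESC replicate 1 or 2 the number gained between MEF and ESC was 42 (29.2%) or 43 (29.9%), since a single list then decides, against 27.5% and 26.3% of all regions in the same setting. Without MEF replicate 2 the number lost was 27 (18.8%), against 20.1% of all regions.

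At their gene ends (within 1 kb of an annotated start, or of either end where no start was given), 4 of the 9 genes had a peak in both MEF libraries, 4 for DAY3, 6 for DAY6, 6 for DAY9 and 7 for ESC. These are 44.4%, 44.4%, 66.7%, 66.7% and 77.8%, against 56.7%, 56.2%, 60.5%, 63.6% and 63.0% of 21896 protein-coding genes, whose share was also higher in DAY6, DAY9 and ESC than in MEF. Fut9 and Icam1 went from no MEF library to both ESC libraries, as did 4.76% of the protein-coding genes. None of the 9 went the other way, as did 1.25% of all genes. Of 20 other genes of fucose and Lewis X synthesis, 16 had a gene-end peak in both libraries of MEF, 16 of DAY3, 14 of DAY6, 17 of DAY9 and 15 of ESC. Their shares of 70% to 85% stand beside the 56.2% to 63.6% of all protein-coding genes. Among them were B4galt1, a galactosyltransferase, Slc35c1, the GDP-fucose transporter, and Gmds, an enzyme of GDP-fucose synthesis, with peaks in all 10 libraries. B4galt2, another galactosyltransferase, had gene-end peaks in both libraries of MEF and DAY3, in none of DAY6, in 1 of DAY9 and in none of ESC. Fut1 and Fut7, further fucosyltransferase genes, had none until DAY9, where both libraries had one, as had 1 ESC library, and none of the 20 genes was gained.

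Of 22 other surface marker genes, 15 had a gene-end peak in both libraries of MEF, 14 of DAY3, 19 of DAY6, 17 of DAY9 and 19 of ESC. These are 68.2%, 63.6%, 86.4%, 77.3% and 86.4%, beside the shares of all genes given above. Gained between MEF and ESC were Cdh1, the epithelial cadherin gene, from DAY6 on, and Eng, a TGF-β co-receptor gene, and Icam2, a relative of Icam1, in ESC alone. Ly6a, which encodes the surface antigen Sca-1, had gene-end peaks in both libraries of MEF, DAY3, DAY6 and DAY9 and in neither of ESC.

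The protein-coding gene with the most similar peak numbers over the 10 lists, outside overlapping windows, was Ifi30 for Fut4 (Pearson r = 0.943), F830016B08Rik for Fut9 (r = 0.973) and Daam2 for Thy1 (r = 0.953). It was Colec12 for Cd44 (r = 0.982), Nr4a1 for Icam1 (r = 0.973) and Khdc3 for Pecam1 (r = 0.988). It was Atp5j2 for Kit (r = 0.992), Cdk5rap3 for Alpl (r = 0.985) and Rab8a for Itga6 (r = 0.965). These are the closest of all genes by choice, the 10 lists share stage and list length between genes, and the values are descriptions.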

How the data were processed

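The members, gene lists and rules were chosen with earlier results of these data known. ATAC-seq peaks were deposited by the authors as 1 list for each of 10 libraries, without a header. Per the submitters' processing notes the tools Bowtie2 2.3.2, MACS2 2.1.1 and deepTools 2.3.6 and the build mm10 were used, with no role given. The deposited columns hold a score (10 times the −log10 p-value, rounded down), a fold, and −log10 p-values and q-values. The fold is the summit pileup as a linear ratio over local background, with 1 added to each. Gaps in the peak names show that peaks were removed by a rule that is not stated. How duplicates and the transposase offset were handled is not given in the sources used here.

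Whole summit pileups were recovered from fold and p-value (tolerance 0.01 in −log10 p) to give background pileup and replicate noise (at pileups of 100 to 200). Replicate noise compares the squared difference of scaled pileups with its counting variance, and is 1 for counting noise alone. Lists were merged into regions, and at least 1 bp of a peak gave a library a region. Named were regions at gene ends and, per gene, up to 4 gained or lost and 4 intermediate regions by score. The strongest regions open in all libraries (inside Usp2 and Cd44 and at Pdk1) and the lost region inside Kit were named after their values were seen. So were B4galt1, Slc35c1, Gmds, Fut1 and Fut7 of the wider gene lists. Tests were run with Python 3.11.15 and numpy 2.4.6 and were tested on simulated data. Positions are 1-based.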

Additional observations from a re-analysis of the deposited data

How the results depend on the processing

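The alternatives were lists of equal length (45497 peaks, by score), windows of 10 kb, 50% coverage of a region, base pairs under peaks, 10 separate libraries, the replicate block and leaving out each library. Of 40 values of counts under the alternatives other than leaving out a library, 30 stayed within 1.5 times and 10 moved. Lists of equal length left 90 regions at the 9 genes. Of these, 4 (4.44%, against 4.33% of all regions) were gained from DAY3 to DAY6, 5 (5.56%, against 3.52%) gained and 0 (against 2.36%) lost from DAY6 to DAY9, 7 (7.78%, against 7.85%) gained from DAY9 to ESC, and 15 (16.7%, against 12.9%) gained from MEF to ESC. With windows of 10 kb, which hold fewer regions (106), 7 (6.6%) were gained and 0 lost from DAY6 to DAY9, 9 (8.49%) lost from DAY9 to ESC and 9 (8.49%) lost from MEF to ESC, with the shares over all regions as in the main comparison. With 10 separate libraries 6831 genes had an unadjusted exact permutation p under 0.05.

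Leaving out a library, so that 1 list decides, gave 10 to 13 regions gained and 13 to 29 lost from MEF to DAY3 (29 without MEF replicate 2, 23 without MEF replicate 1). It gave 8 to 16 gained (16 without DAY6 replicate 2, 14 without DAY6 replicate 1) and 4 to 6 lost from DAY3 to DAY6. From DAY6 to DAY9 it gave 17 to 21 gained (21 without DAY9 replicate 1, 19 without DAY6 replicate 1) and 1 to 4 lost (4 without DAY6 replicate 1, 2 without DAY6 replicate 2 or DAY9 replicate 2). From DAY9 to ESC it gave 13 to 26 gained (26 without ESC replicate 2, 24 without ESC replicate 1) and 16 to 21 lost. From MEF to ESC it gave 26 to 43 gained and 14 to 27 lost. Genes with an unadjusted p under 0.05 then numbered 1396 to 2675, with fewer arrangements, and genes with an adjusted p under 0.05 stayed at 0.

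No pairing by replicate number was found, since the correlation of deviations from the stage means lay between -0.0095 and 0.022 for 10 pairs of stages. With the replicate block, 3131 genes had an unadjusted exact permutation p under 0.05 and 0 an adjusted one, and the members' p-values ran from 0.0167 (Pecam1 and Kit) to 0.4 (Fut4). No member had an adjusted p under 0.05 in any of these settings (the lowest was 0.101), and the cause of the values that moved was not tested beyond the list length and the window that the settings change. At the genome-wide background, depth limits what could be listed to folds of at least 2.57 to 3.61, depending on the library.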
